A study of Mus musculus with 49 samples.

Results

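Nnt, its chromosome 13 neighbours Ccl28 and Paip1, and 6 genes that act in mitochondrial NADPH supply and use were followed. The 6 are Idh2, Me3, Gsr, Prdx3, Txn2 and Txnrd2. The data were 49 frontal cortex RNA-seq libraries of mice on a high fat diet. These 9 genes were taken by name from a table of 24488 genes, and all 9 passed the filter on low values in each comparison. The members were named for their place or role. Nnt and Ccl28 were also chosen by their measured levels in the libraries labelled AKO and transgenic against WT. Their levels between lines are therefore described without a test, while the other 7 genes were read from tests over all genes.

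All mice were on the high fat diet. WT mice were sampled after 4 months (n = 10 libraries) or 2 months (n = 9), and mice labelled AKO, an amylin knockout, after 4 months (n = 10). Mice with a conditional human amylin transgene, on the diet for 4 months, had been injected with vehicle (n = 10) or tamoxifen (n = 10), and brains were taken 2 months after injection. Their titles start with Cre, but the promoter that drives the Cre or the transgene is not named in the labels. The labels give no strain, age, sex or litter and do not say which libraries came from separate animals. P-values therefore measure the spread between these libraries. Levels are log2(normalised reads + 1), and differences between groups are on that log2 scale with a standard error (SE).

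Nnt encodes nicotinamide nucleotide transhydrogenase, an enzyme of the inner mitochondrial membrane that uses the proton gradient to pass hydride from NADH to NADP+. The NADPH so formed, together with that from Idh2 and Me3, is spent by glutathione reductase (Gsr) and by thioredoxin reductase (Txnrd2), which keeps thioredoxin (Txn2) and through it the peroxidase Prdx3 reduced. Nnt is also known as a gene that differs between laboratory strains: C57BL/6J mice carry a deletion of internal Nnt exons that other C57BL/6 substrains lack. The deposited values are sums over the gene and do not resolve exons, so that allele was not examined here.

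In GENCODE M21 (GRCm38) Nnt (gene ID 18115) lies on the minus strand at chr13:119335448-119408997. Paip1 (218693), a partner of the poly(A)-binding protein in translation, starts 19.6 kb beyond its upper end on the plus strand, at chr13:119428601-119458218, so the 2 genes point away from each other. Ccl28 (56838), a chemokine best known from mucosal epithelia, starts 214.8 kb beyond the same end, at chr13:119623819-119654359 on the plus strand. The other members lie elsewhere: Idh2 and Me3 on chromosome 7, Gsr on 8, Prdx3 on 19, Txn2 on 15 and Txnrd2 on 16.

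The RefSeq promoter table (GRCm38.p6) held 7 of the 9 members, all but Nnt and Gsr. The windows of the 2 neighbours are shown. Each is the 250 bases before the gene start, on the plus strand, with CpG dinucleotides in capitals. The Ccl28 window is chr13:119623569-119623818 and the Paip1 window, the first of 2 in the table, is chr13:119428350-119428599.
Ccl28: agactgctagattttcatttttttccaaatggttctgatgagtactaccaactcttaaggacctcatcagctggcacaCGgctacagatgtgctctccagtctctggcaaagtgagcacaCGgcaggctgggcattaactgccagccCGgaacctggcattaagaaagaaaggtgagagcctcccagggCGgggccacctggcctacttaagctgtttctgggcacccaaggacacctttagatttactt
Paip1: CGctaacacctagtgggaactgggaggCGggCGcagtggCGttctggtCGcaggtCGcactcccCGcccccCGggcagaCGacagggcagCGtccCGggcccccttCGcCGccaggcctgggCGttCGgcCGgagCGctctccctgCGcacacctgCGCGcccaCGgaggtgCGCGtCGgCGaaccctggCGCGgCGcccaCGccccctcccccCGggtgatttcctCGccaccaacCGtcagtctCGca
The Ccl28 window has 4 CpG, against a median of 6 over 32851 windows. The Paip1 window has 33, and 96% of windows have fewer. Any tie between CpG number and the levels that follow was not tested. The antioxidant response motif TGACNNNGC, searched on both strands, had 0 matches in the windows of the 7 members and was found in 10.2% of all windows. An absent match says only that these letters are not in that window.

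Recovered reads ranged from 29.2 to 75.6 M per library (M for 1e+06), with a median of 42.0 M. Iapp, the amylin gene targeted in the AKO mice, had 596 reads over 10 of 10 libraries labelled AKO. It had 1 read with vehicle and 0 in each of the remaining groups. Reads in the libraries labelled AKO are unlike a plain reading of that label, but the values are sums over the gene. Whether the transcript is intact was not tested. A count of 0 allows up to 3 reads over a group. Excitatory neuron markers were present throughout, with a summed level between 16.78 and 18.1 in all 49 libraries. Vehicle library 3 and tamoxifen library 9 had the highest summed olfactory bulb markers of their groups (15.71 and 14.25, group medians 11.6 and 10.71). Olfactory mucosa markers were highest in library 14 labelled AKO (14.6), and that whole group had the highest median (10.48, lowest library 5.43). The medians were 6.32 with tamoxifen, 7.36 with vehicle, and 7.5 and 8.25 in the WT 4-month and 2-month groups. Of these markers 2 were tested between the AKO-labelled and WT 4-month libraries, and 0 passed. Cyp2a5 was at 3.67 (SE 1.34, adjusted p = 0.219, limma) and Omp at 1.57 (SE 1.04, adjusted p = 0.515). Against WT at 4 months all 5 myelin markers fell in both transgenic groups. In the libraries labelled AKO 2 of 5 fell, Mobp by 0.40 (adjusted p = 0.00304, limma) and Cldn11 by 0.27 (adjusted p = 0.0476), and the other 3 were lower without passing. The blood marker Alas2 rose by 0.88 (adjusted p = 0.00822, limma) with vehicle and by 1.23 (adjusted p = 0.0164) with tamoxifen. The other 4 of the 5 blood markers, all globin genes, were at 0 in every library, so the blood list rests on Alas2 alone. The part of these markers in the differences that follow was not tested.

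Nnt was highest in the libraries labelled AKO and lowest in WT. The libraries labelled AKO ran from 10.46 to 10.59 (median 10.51), and WT at 4 months from 9.64 to 9.92 (median 9.70). The 2 groups did not overlap. Of the 15288 genes tested 0.124% had non-overlapping groups in that comparison, for which Nnt was picked. WT at 2 months ran from 9.60 to 9.75 (median 9.67), within reach of WT at 4 months. The mean difference between the libraries labelled AKO and WT was 0.77 (SE 0.039), a 1.71-fold higher level. In bulk tissue, a change in the number of cells of a type and a change in RNA per cell cannot be told apart.

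The transgenic libraries were spread over the whole distance between those 2 groups. Vehicle libraries ran from 9.63 to 10.61 (median 10.08) and tamoxifen libraries from 9.55 to 10.46 (median 10.24). Of the 10 vehicle libraries, 5 lay in the gap between the WT range and the range of the libraries labelled AKO, 2 lay in the WT range, 1 below it, 1 in the AKO-labelled range and 1 above it. Of the 10 tamoxifen libraries, 7 lay in the gap, 1 in each of the 2 ranges and 1 below WT. Against WT at 4 months the mean was higher by 0.37 (SE 0.098) with vehicle and by 0.40 (SE 0.099) with tamoxifen, and the libraries labelled AKO were higher than vehicle by 0.40 (SE 0.094). These comparisons share libraries and are not independent.

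The spread of Nnt over libraries also differed between groups. The SD was 0.044 in the libraries labelled AKO, close to the counting error of 0.043 that goes with 1100 reads, the fewest in any of them. WT had an SD of 0.0995 at 4 months and of 0.060 at 2 months. The SD was 3.13 times the WT 4-month value with vehicle (0.31) and 3.22 times with tamoxifen (0.32). Many other genes also had a wide spread in the transgenic groups. Of 15873 genes, 66% had a lower SD than Nnt with vehicle and 71.9% with tamoxifen, against 29.4% in WT at 4 months. Among 2430 genes of like level these shares were 85.8%, 91.8% and 35.6%. In the libraries labelled AKO only 1.17% of all genes, and 0.206% of those of like level, had a lower SD than Nnt. In WT at 2 months these were 4.9% and 2.51%. In order of mean level the groups ran from the libraries labelled AKO (10.52 ± 0.044, SD, n = 10) through tamoxifen (10.15 ± 0.32, n = 10), vehicle (10.12 ± 0.31, n = 10) and WT at 4 months (9.75 ± 0.0995, n = 10) to WT at 2 months (9.67 ± 0.060, n = 9). Each transgenic group overlapped both WT and the libraries labelled AKO.

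**Figure D1:**
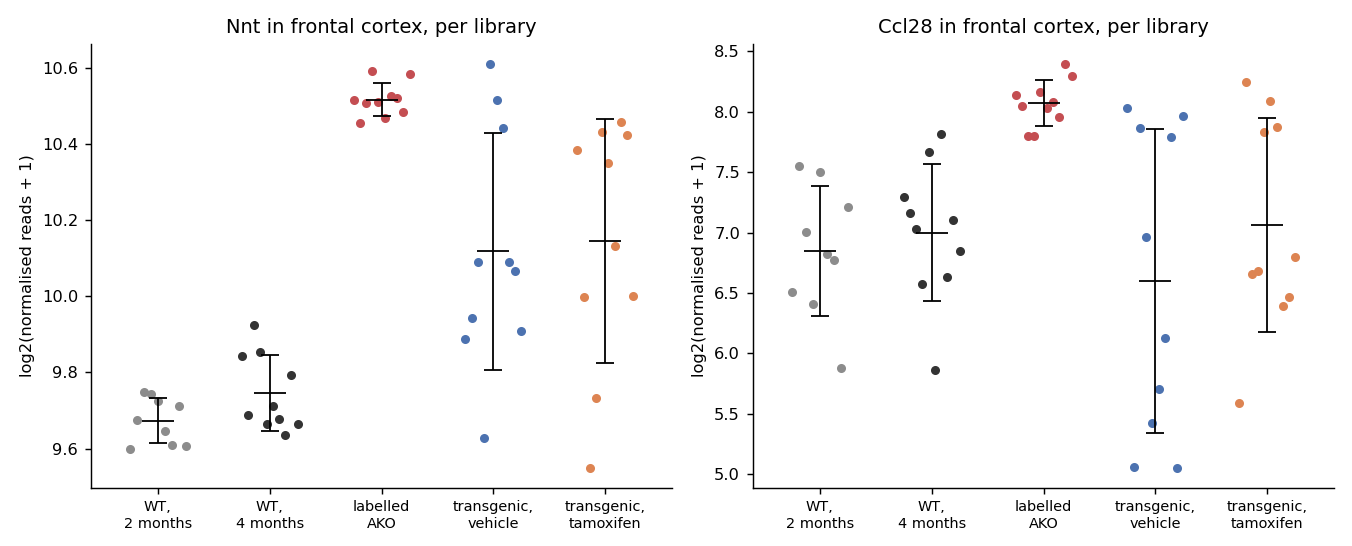
Nnt (left) and Ccl28 (right) as log2(normalised reads + 1) in each library of the 5 groups; points are libraries and bars the mean and SD. The Nnt points labelled AKO (10.46 to 10.59) sit apart from all WT points, and the transgenic points span the distance between them; the 2 vertical axes differ.

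Tamoxifen did not move Nnt past the test. The difference between tamoxifen and vehicle was 0.03 (SE 0.13, adjusted p = 1, limma; 95% interval -0.25 to 0.31), which leaves room for changes in either direction. In this comparison 0 of 15235 genes passed (0%) and 503 (3.3%) had an unadjusted p under 0.05; limma-voom on recovered reads called 0 of the 9 members as well. Between WT at 4 and 2 months the Nnt difference was 0.07 (SE 0.044, adjusted p = 0.3, limma; 95% interval -0.02 to 0.16).

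Ccl28, the chemokine gene beyond Paip1, had a different pattern. Libraries labelled AKO ran from 7.80 to 8.40 (median 8.07) and WT at 4 months from 5.86 to 7.82 (median 7.07), so that the 2 ranges overlapped narrowly. The mean was higher in the libraries labelled AKO by 1.07 (SE 0.17), or 2.1-fold. That group also had the highest median of olfactory mucosa markers, whose part in the Ccl28 difference was not tested. With group means subtracted, Ccl28 had an r of -0.269 with those markers over the 49 libraries. WT at 2 months ran from 5.88 to 7.55 (median 6.83). Unlike Nnt, Ccl28 already varied widely in WT, with an SD of 0.57 at 4 months against 0.19 in the libraries labelled AKO.

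Transgenic libraries fell on both sides of WT for Ccl28. With vehicle the values ran from 5.05 to 8.04 (median 6.55), and 4 libraries lay below the WT 4-month range while 3 lay above it. With tamoxifen they ran from 5.59 to 8.25 (median 6.74), with 1 library below and 4 above. The mean differences from WT at 4 months were -0.40 (SE 0.41) with vehicle and 0.06 (SE 0.31) with tamoxifen. The libraries labelled AKO exceeded vehicle by 1.47 (SE 0.38). Tamoxifen against vehicle gave 0.46 (SE 0.46, adjusted p = 1, limma), with an interval from -0.49 to 1.42, and WT at 4 against 2 months gave 0.15 (SE 0.23, adjusted p = 0.717, limma).

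Ccl28 had 24 to 500 reads per library. At 24 reads the counting error is 0.29 on the log2 scale, far under the vehicle SD of 1.26. With group means subtracted, Nnt and Ccl28 had a Pearson r of -0.237 over the 49 libraries, a weak relation.

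Between Paip1 and Ccl28 lie 4833420G17Rik and 2 overlapping gene models, Gm7120 and 3110070M22Rik. Reads could be split between the 2 overlapping models, so their separate values are uncertain. 4833420G17Rik did not pass in any comparison. Against WT at 4 months it was at 0.04 (SE 0.045, adjusted p = 0.685, limma) in the libraries labelled AKO. It was at 0.06 (SE 0.061, adjusted p = 0.619) with vehicle and at 0.08 (SE 0.061, adjusted p = 0.429) with tamoxifen. Gm7120 fell by 0.87 (SE 0.22, adjusted p = 0.0224, limma) with vehicle and by 0.81 (SE 0.21, adjusted p = 0.0149) with tamoxifen against WT at 4 months, and it was higher by 1.13 (SE 0.20, adjusted p = 0.00288) in the libraries labelled AKO than with vehicle. WT 4-month libraries ran from 9.06 to 10.02 (median 9.67), vehicle from 7.81 to 9.76 (median 8.70) and tamoxifen from 7.53 to 9.45 (median 8.92). The groups overlapped, with the lowest transgenic libraries far under any WT library. 3110070M22Rik fell by 0.998 (SE 0.22, adjusted p = 0.00846) with vehicle and by 1.16 (SE 0.32, adjusted p = 0.0205) with tamoxifen, from as few as 4 reads in a library.

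Ccl28 and Gm7120 varied together in 4 of 5 groups, the exception being the libraries labelled AKO. This pair was chosen after its values were seen, and r is given as a description. Pearson r was 0.88 in the vehicle group, 0.794 in WT at 4 months and 0.663 in the tamoxifen group (n = 10 each), 0.674 in WT at 2 months (n = 9) and 0.111 in the libraries labelled AKO (n = 10). Over the 49 libraries with group means subtracted it was 0.769. In the libraries labelled AKO both genes varied little, with an SD of 0.19 for Ccl28 and 0.11 for Gm7120. In WT at 4 months these were 0.57 and 0.33. Over so narrow a range a low r cannot show whether the relation is absent. The points share library and depth.

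**Figure D2:**
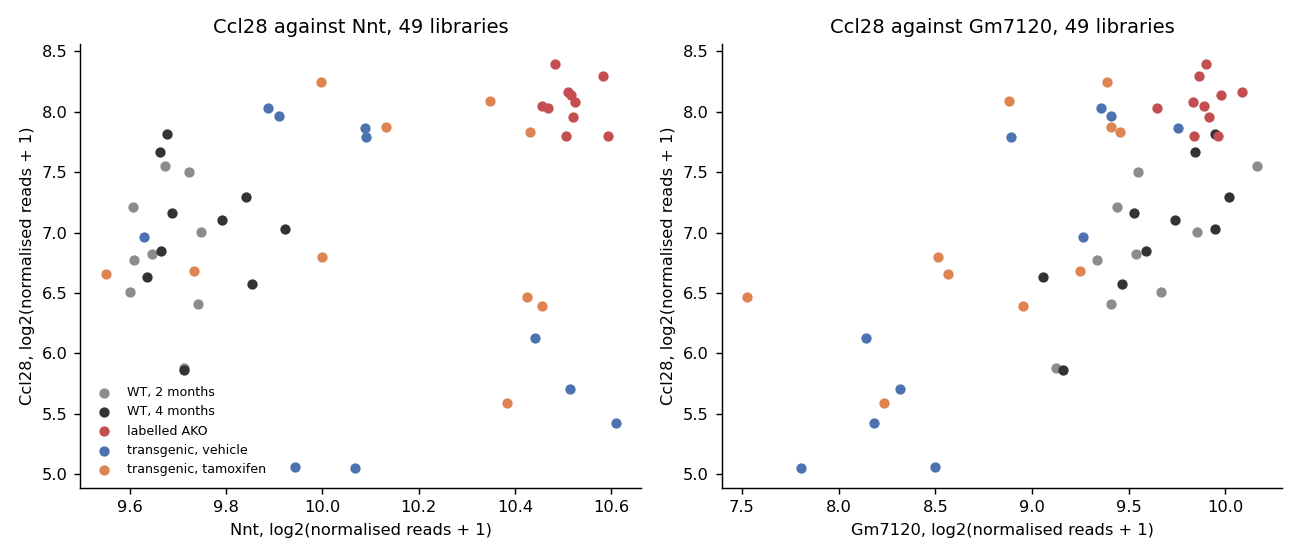
Ccl28 on the vertical axis against Nnt (left) and Gm7120 (right), all as log2(normalised reads + 1); each point is 1 of 49 libraries, coloured by group. With group means subtracted, r over the 49 libraries is 0.769 with Gm7120 and -0.237 with Nnt. In the libraries labelled AKO alone, where Ccl28 and Gm7120 both vary little, it is 0.111 with Gm7120.

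Paip1, the nearest tested gene above Nnt, was even across the study. Group means lay between 11.80 (tamoxifen) and 11.89 (WT at 4 months), with SDs of 0.066 to 0.096, and its libraries overlapped in every comparison. Its difference between the libraries labelled AKO and WT was -0.04 (SE 0.037, adjusted p = 0.628, limma; 95% interval -0.12 to 0.03). The largest of its 6 differences was -0.08 (SE 0.036, adjusted p = 0.14) for tamoxifen against WT at 4 months. It was not called in any of the 6 comparisons.

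Of 34 genes of the table within 5 Mb of Nnt, 18 were tested, 16 of them other than Paip1 and Ccl28. Measured between lower ends, the tested genes lay from -4883.3 to 429.7 kb from Nnt. In the libraries labelled AKO against WT, 0 of these 16 passed, where 0.785% of all genes tested did, and their median difference was 0.048 against 0.005 for all genes. Fgf10, the nearest tested gene below (-620.8 kb), encodes a growth factor and was at -0.18 (SE 0.083, adjusted p = 0.318) there.

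In the transgenic comparisons a few more of the 16 genes passed. With vehicle against WT, 3 passed, where 6.17% of all genes did: Gm7120, 3110070M22Rik and Mocs2, a molybdopterin synthase gene that fell by 0.11 (SE 0.030, adjusted p = 0.0257). With tamoxifen against WT, 4 passed, where 13% of all genes did. These were again Gm7120 and 3110070M22Rik, with Fgf10, which fell by 0.41 (SE 0.12, adjusted p = 0.0237), and Pelo, a ribosome rescue gene that rose by 0.16 (SE 0.053, adjusted p = 0.0473). The median differences of the 16 genes were -0.107 and -0.081, against 0 and -0.003 for all genes. In WT at 4 against 2 months 1 of the 16 passed, where 8.68% of all genes did: Mocs2, which rose by 0.10 (SE 0.030, adjusted p = 0.0421). Tamoxifen against vehicle gave 0 of 16, where 0% of all genes passed. In the libraries labelled AKO against vehicle 2 passed, where 6.63% of all genes did: Gm7120, given above, and 3110070M22Rik, which was higher by 0.98 (SE 0.23, adjusted p = 0.0169). Against the 5 WT libraries numbered 11 to 15 or the 5 numbered 21 to 25 alone, the vehicle group had 0 of these calls, and the tamoxifen group 1 (Fgf10) or 0. Those fits have fewer samples, and the loss of calls was not set against that of all genes.

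**Figure D3:**
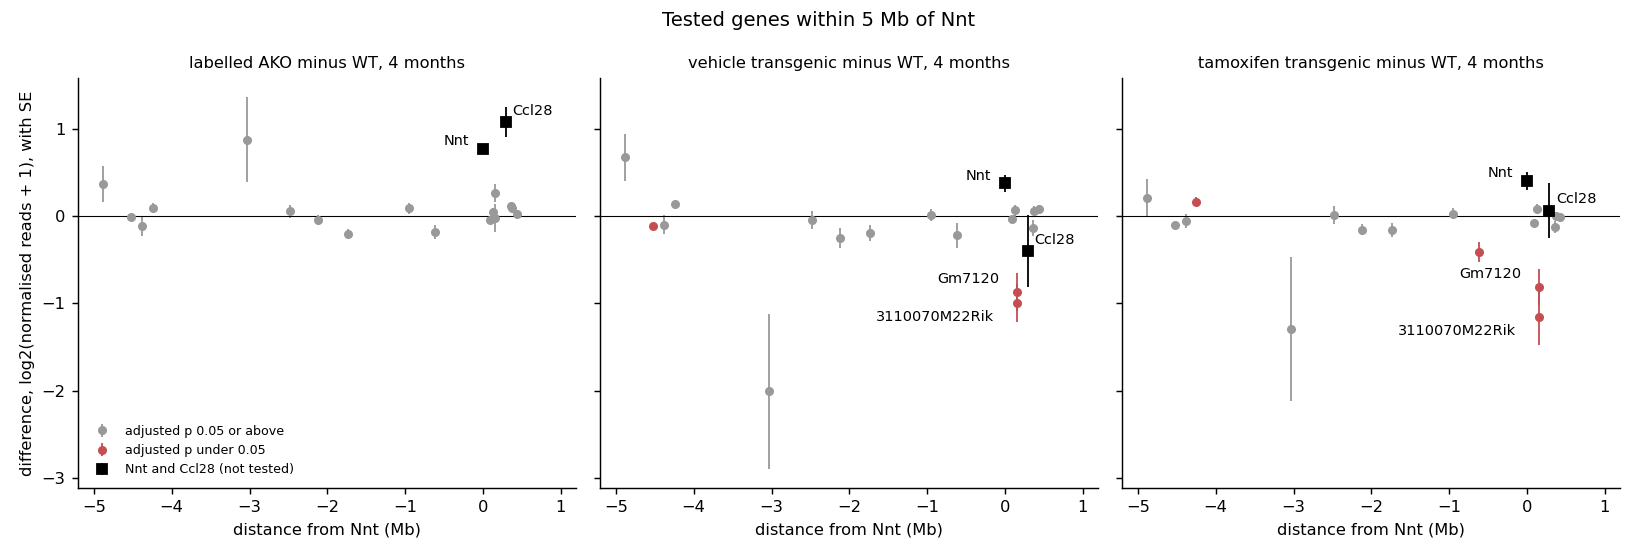
Differences from WT at 4 months for the tested genes within 5 Mb of Nnt, against distance from Nnt in Mb; bars are SE, red points have an adjusted p under 0.05, and squares mark Nnt and Ccl28, which are described without a test. No tested gene is red in the libraries labelled AKO. In the transgenic groups Gm7120 and 3110070M22Rik lie lower. The low grey point with the long bar is Isl1 (-2.01, SE 0.89, with vehicle).

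Among the other suppliers of mitochondrial NADPH, Me3, the NADP-linked malic enzyme, differed between groups by small amounts. WT at 4 months ran from 10.90 to 11.31 (median 11.21), vehicle from 11.18 to 11.66 (median 11.35), tamoxifen from 11.15 to 11.55 (median 11.35) and WT at 2 months from 11.18 to 11.47 (median 11.38). All of these ranges overlapped, with WT at 4 months lowest. Me3 rose against WT at 4 months by 0.20 (SE 0.057, adjusted p = 0.044, limma) with vehicle and by 0.17 (SE 0.053, adjusted p = 0.0375) with tamoxifen, and it fell by 0.17 (SE 0.050, adjusted p = 0.038) in WT at 4 against 2 months. All 3 comparisons use the same WT 4-month libraries, whose library 13 at 10.90 is the lowest of the study. That library also had the highest summed astrocyte (16.68), microglia (13.43) and olfactory bulb (14.01) markers, and the highest choroid plexus markers, of its group, whose part in the Me3 value was not tested.

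The Me3 calls sat at the threshold. With vehicle against WT it was lost in 15 of 20 fits that left out 1 library (adjusted p 0.0257 to 0.0837), with tamoxifen in 11 of 20 (0.00997 to 0.0725) and in WT at 4 against 2 months in 10 of 19 (0.0167 to 0.076), while the difference kept its sign. Against WT libraries 11 to 15 or 21 to 25 alone Me3 did not pass (adjusted p = 0.271 and 0.118 with vehicle, 0.207 and 0.0809 with tamoxifen). Without WT library 13 the tamoxifen and WT differences were 0.14 and -0.14. The libraries labelled AKO ran from 11.04 to 11.43 and differed from WT at 4 months by 0.06 (SE 0.048, adjusted p = 0.571; 95% interval -0.04 to 0.16).

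Idh2, the NADP-linked isocitrate dehydrogenase of mitochondria, did not pass the test in any comparison. Its group means ran from 10.51 in WT at 2 months to 10.75 in the libraries labelled AKO. The difference between the libraries labelled AKO and WT was 0.10 (SE 0.057, adjusted p = 0.421, limma; 95% interval -0.01 to 0.22), and that between WT at 4 and 2 months 0.14 (SE 0.054, adjusted p = 0.109; 95% interval 0.02 to 0.25). Leaving out 1 library brought the latter under the threshold in 2 of 19 fits.

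In WT at 4 against 2 months, where Me3 fell, 3 of 5 astrocyte and 3 of 5 microglia markers rose. So did 1 of 4 endothelium markers and the 1 blood marker tested, where 4.54% of all genes rose. Of 5 excitatory neuron markers 1 (Slc17a7) fell, where 4.14% of all genes fell. In the other marker lists no marker passed. The summed astrocyte level ran from 16.28 to 16.68 at 4 months and from 16.19 to 16.36 at 2 months, the microglia level from 13.23 to 13.43 and from 13.12 to 13.27, and no marker of either list was at 0. With group means subtracted over 49 libraries, Me3 had an r of -0.526 with the astrocyte markers and Idh2 one of 0.696. The part of these markers in the Me3 and Idh2 differences was not tested.

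Of the NADPH users, Gsr, which reduces oxidised glutathione, rose by 0.14 (SE 0.038, adjusted p = 0.0154, limma) with tamoxifen against WT at 4 months. WT ran from 10.14 to 10.43 (median 10.30) and tamoxifen from 10.38 to 10.53 (median 10.44). The ranges overlapped, but 6 of 10 tamoxifen libraries lay above every WT library. With vehicle the difference was 0.10 (SE 0.039, adjusted p = 0.155), and in the libraries labelled AKO 0.12 (SE 0.046, adjusted p = 0.245). Gsr was tightly held in the transgenic groups, with an SD of 0.053 with vehicle and 0.049 with tamoxifen against 0.097 in WT at 4 months.

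The WT titles fall into 2 runs of numbers, 11 to 15 and 21 to 25, and Gsr separated them. It ran from 10.14 to 10.29 in the first run and from 10.31 to 10.43 in the second, a difference of -0.15 (exact permutation test, two-sided, p = 0.00794, the smallest that 5 against 5 allows; 0.0715 after adjustment over 9 members). The labels do not say what the runs are. Against the second run alone the tamoxifen difference was 0.07 (adjusted p = 0.287), and against the first run alone Gsr still passed. None of the other 8 members had an exact p under 0.05.

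Txn2, mitochondrial thioredoxin, fell by 0.13 (SE 0.034, adjusted p = 0.0145, limma) with tamoxifen against WT at 4 months. WT ran from 12.10 to 12.32 (median 12.20) and tamoxifen from 11.98 to 12.18 (median 12.05), and 7 of 10 tamoxifen libraries lay below every WT library. With vehicle the difference was -0.06 (SE 0.041, adjusted p = 0.49) and in the libraries labelled AKO -0.01 (SE 0.039, adjusted p = 0.919). Tamoxifen against vehicle, which tests the step between the 2 transgenic groups, gave -0.08 (SE 0.040, adjusted p = 1; 95% interval -0.16 to 0.01). Against WT libraries 11 to 15 alone the tamoxifen difference was -0.10 (adjusted p = 0.184), and against 21 to 25 alone Txn2 still passed.

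Prdx3, the mitochondrial peroxidase that Txn2 reduces, and Txnrd2, its thioredoxin reductase, did not pass in any comparison. Prdx3 group means ran from 11.27 (WT at 2 months) to 11.39 (vehicle), and its largest difference was 0.07 (SE 0.040, adjusted p = 0.277, limma) in WT at 4 against 2 months. Txnrd2 group means ran from 9.25 (WT at 2 months) to 9.42 (vehicle). Its largest difference was -0.11 (SE 0.055, adjusted p = 0.213, limma) for the libraries labelled AKO against vehicle, and 6.63% of all genes passed in that comparison.

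Across the 7 members open to a test, 0 passed in the libraries labelled AKO against WT (0.785% of all genes), 1 with vehicle (6.17%), 3 with tamoxifen (13%), 0 in the libraries labelled AKO against vehicle (6.63%) and 1 between the WT groups (8.68%). Tamoxifen against vehicle gave 0 of all 9 members (0%). The summed myelin marker level ran from 17.08 to 17.36 in WT at 4 months, 16.75 to 17.23 in the libraries labelled AKO, 16.1 to 17.28 with vehicle and 16.19 to 17.19 with tamoxifen, with no marker at 0. Its part in the member differences was not tested. Without vehicle library 3 and tamoxifen library 9 the same members passed, with Me3 at 0.21 (adjusted p = 0.0286) with vehicle, and Me3 at 0.19, Gsr at 0.14 and Txn2 at -0.14 with tamoxifen (adjusted p = 0.00997, 0.0134 and 0.00432).

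**Figure D4:**
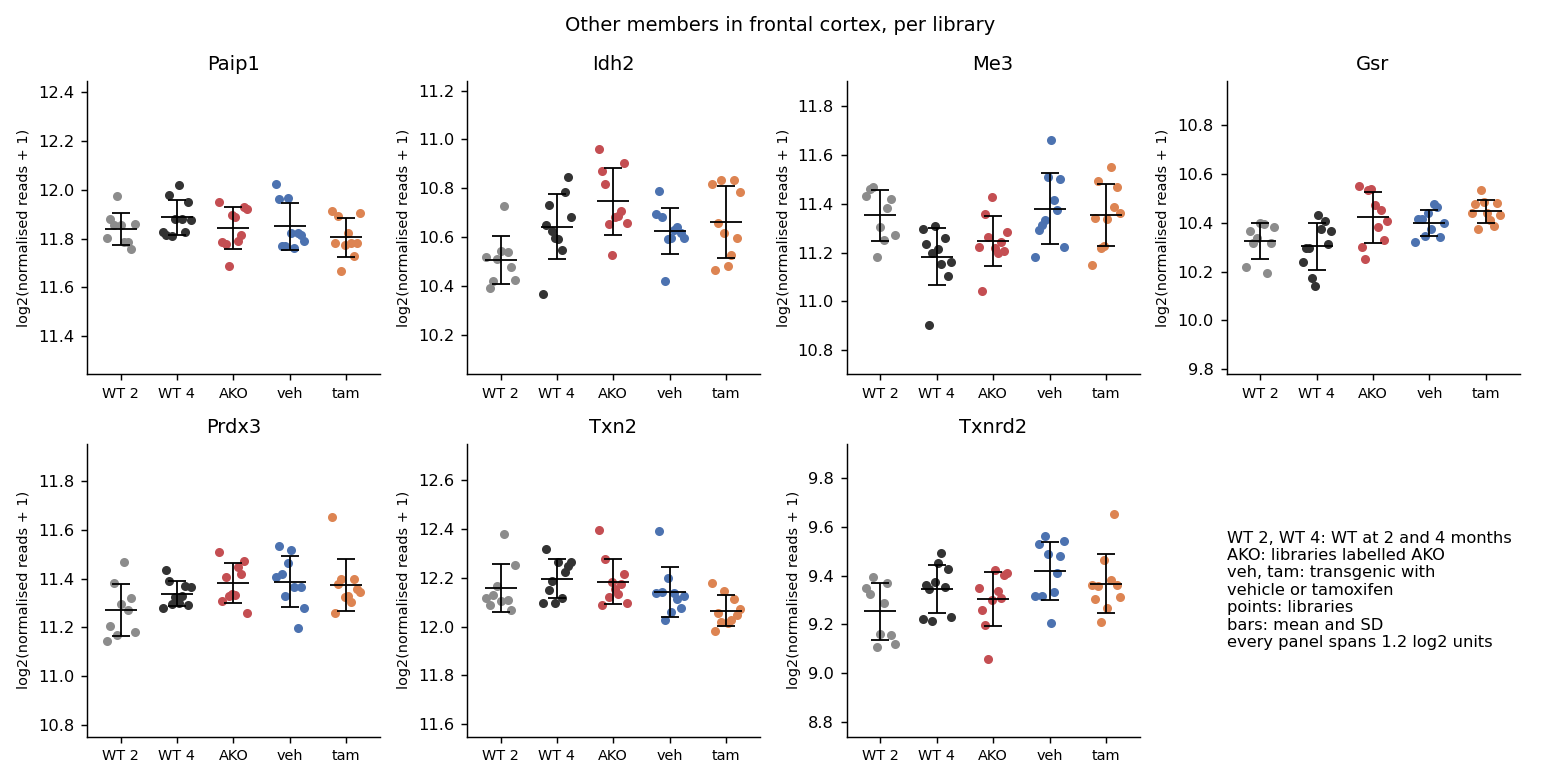
The 7 other members as log2(normalised reads + 1) in each library of the 5 groups; points are libraries, bars are mean and SD, and every panel spans the same range of 1.2 log2 units. The ranges overlap in each of the 6 comparisons, and group means lie farthest apart for Idh2 (10.51 to 10.75) and Me3 (11.18 to 11.38).

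The wider pathways were read from 5 lists, counted without Nnt. Of their 52 other genes, 0 passed in the libraries labelled AKO against WT (0.785% of all genes), 6 with vehicle (6.17%) and 13 with tamoxifen (13%). In the libraries labelled AKO against vehicle 5 were higher and 3 lower (6.63% of all genes passed). In WT at 4 against 2 months 6 rose and 2 fell (8.68%), and tamoxifen against vehicle gave 0 (0%). With vehicle against WT, Mthfd2 and Aldh1l2, which make NADPH in mitochondrial folate metabolism, fell by 0.57 (SE 0.092, adjusted p = 0.00102, limma) and 0.46 (SE 0.13, adjusted p = 0.0337). With tamoxifen Mthfd2 fell by 0.53 (SE 0.084, adjusted p = 0.000303), and Aldh1l2 was at -0.39 (SE 0.14, adjusted p = 0.0636). Among the 7 mitochondrial suppliers other than Nnt, 1 (Me3) rose and 2 fell with vehicle, and 1 (Me3) rose and 1 fell with tamoxifen. The median difference of the 7 was -0.066 and -0.019, against 0 and -0.003 for all genes.

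In the list of 12 mitochondrial glutathione, thioredoxin and peroxide genes, 0 passed with vehicle, where 6.17% of all genes did. With tamoxifen, where 13% of all genes passed, Gsr rose, while Txn2 and Sod2, the superoxide dismutase of the matrix, fell (Sod2 by 0.11, SE 0.029, adjusted p = 0.013). The median difference was 0.016 and -0.001.

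In the cytosol, Pgd of the pentose phosphate pathway rose by 0.23 (SE 0.044, adjusted p = 0.00411) with vehicle and by 0.22 (SE 0.044, adjusted p = 0.00228) with tamoxifen. Idh1, the cytosolic isocitrate dehydrogenase, fell by 0.17 (SE 0.042, adjusted p = 0.016) with vehicle. These were the calls among 7 cytosolic suppliers, where 6.17% of all genes passed with vehicle and 13% with tamoxifen. Among 12 cytosolic thioredoxin and glutathione genes, Prdx6 fell by 0.25 (SE 0.048, adjusted p = 0.00348) and 0.30 (SE 0.050, adjusted p = 0.00054), and Gclc, of glutathione synthesis, rose by 0.08 (SE 0.026, adjusted p = 0.0424) with tamoxifen. Of 14 tricarboxylic acid cycle and NAD-linked genes, 0 passed with vehicle and 5 fell with tamoxifen, where 6.87% of all genes fell. The 5 were led by Dlst (fell by 0.15, SE 0.027, adjusted p = 0.000665), Fh1 (fell by 0.14, SE 0.028, adjusted p = 0.00168) and Dld (fell by 0.09, SE 0.026, adjusted p = 0.024). The median of that list with tamoxifen was -0.054, against -0.003 for all genes. Tamoxifen against vehicle gave 0 of these 14 (0% of all genes), with a median of -0.034.

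The libraries labelled AKO differed from vehicle in several of the same genes, in a comparison that shares its vehicle libraries with the one above. Mthfd2 was higher by 0.38 (SE 0.084, adjusted p = 0.0126, limma), Aldh1l2 by 0.45 (SE 0.11, adjusted p = 0.0202), Idh1 by 0.23 (SE 0.044, adjusted p = 0.00419) and Prdx6 by 0.26 (SE 0.053, adjusted p = 0.00825). Srxn1, sulfiredoxin, was lower by 0.23 on the log2 scale (-0.23, SE 0.052, adjusted p = 0.0126). Of the 12 cytosolic thioredoxin and glutathione genes 2 were higher and 2 lower, where 3.8% of all genes were higher and 2.84% lower.

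Between WT at 4 and 2 months 2 of the 7 mitochondrial suppliers rose and 1, Me3, fell, where 4.54% of all genes rose and 4.14% fell. Nadk2, the mitochondrial NAD kinase, rose by 0.20 (SE 0.045, adjusted p = 0.0112, limma) and Glud1, glutamate dehydrogenase, by 0.13 (SE 0.034, adjusted p = 0.0241). Of the cytosolic lists Idh1 rose by 0.22, Aldh1l1 by 0.16, Prdx1 by 0.17 and Prdx6 by 0.22 (adjusted p = 0.0102, 0.0241, 0.0197 and 0.00433). Ogdh fell by 0.15 (SE 0.035, adjusted p = 0.012). Aldh1l1 is itself known as an astrocyte gene. In the same comparison 3 of 5 astrocyte and 3 of 5 microglia markers rose, and their part in these differences was not tested.

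**Figure D5:**
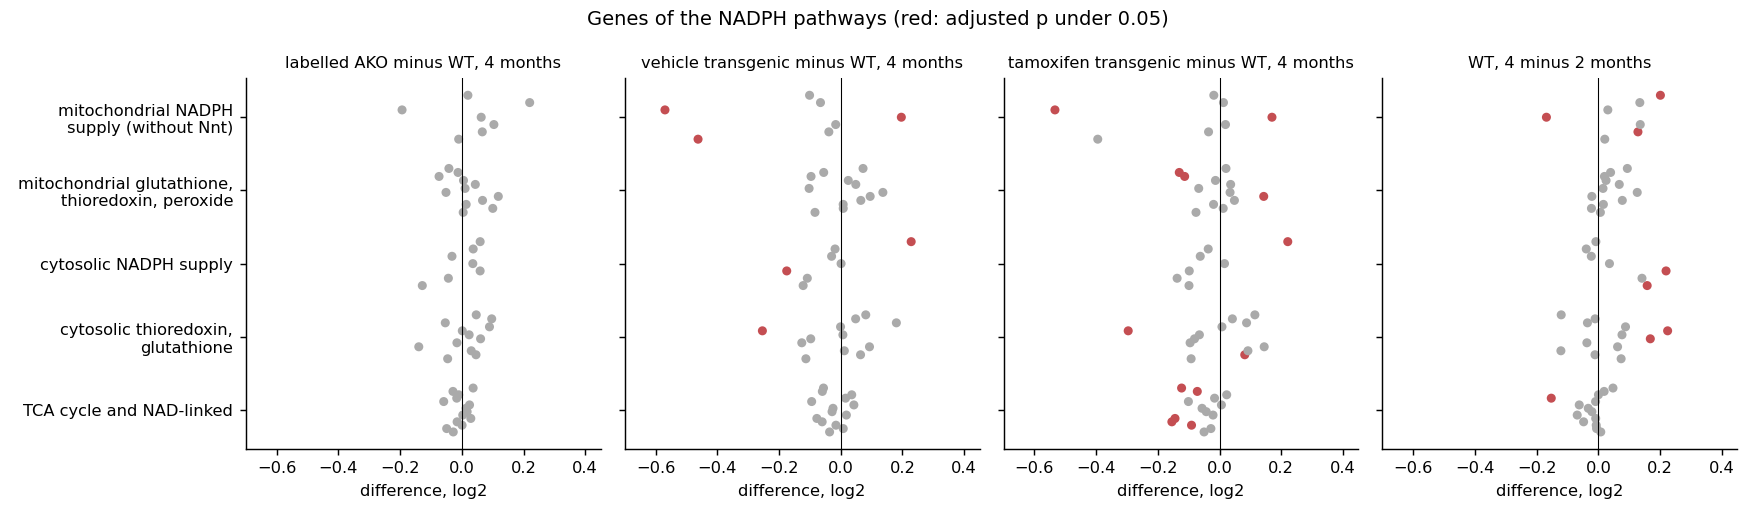
Differences on the log2 scale for each gene of the 5 pathway lists, without Nnt, in 4 comparisons; each point is a gene, and red marks an adjusted p under 0.05. No gene is red in the libraries labelled AKO against WT, while the lowest red points in both transgenic comparisons are Mthfd2 (-0.57 and -0.53).

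The genes most like Nnt were sought among 13066 genes whose average level reached 1 CPM and that are not predicted models. Over all 49 libraries the highest Pearson r were those of Gabra2 (0.679), Scg5 (0.644), Dbp (0.621), Bhlhe41 (0.591) and Pkia (0.578). Gabra2 encodes a subunit of the GABA-A receptor, and Dbp is a clock output factor. The lowest were Fosb (-0.792), Gadd45b (-0.783) and Egr2 (-0.756), which are activity-induced genes. These values hold the differences between groups. With group means subtracted the highest were Rufy3 (0.575), Atp8a2 (0.572), Itpk1 (0.564), Afmid (0.538) and Srp72 (0.516), and the lowest Gpr3 (-0.612), Nab2 (-0.582) and Midn (-0.58). None of these genes lies on chromosome 13, and the points share library and depth.

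No other member was among the 5 genes with the highest r in either reading. Over all 49 libraries, Gsr had an r of 0.464 with Nnt (rank 63 of 13066), Prdx3 0.381 (rank 204), Idh2 0.366 (rank 266) and Ccl28 0.225 (rank 1553). With group means subtracted these 4 values were 0.109, 0.184, -0.037 and -0.237, the last 2 of opposite sign, and those of all members ran from -0.237 to 0.184. Idh2, Txn2 and Prdx3 had higher r with each other: 0.574 for Idh2 and Txn2, 0.53 for Prdx3 and Txn2, and 0.494 for Idh2 and Prdx3. Gsr and Txnrd2 did not share this, with r of 0.046 and 0.036 against Prdx3. Cell type markers also varied with some of these genes, with Prdx3 at -0.648 and Txn2 at -0.56 against the excitatory neuron markers and Prdx3 at 0.61 against the inhibitory ones. Nnt had no r beyond 0.226 (striatum) in size against any of the 11 marker lists.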

How the data were processed

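Per the labels, libraries were made from frontal cortex RNA with a stranded mRNA kit. The deposited table holds log2 values made by the authors; aligner, counter and genome build were not given in the sources used here. The values were found to be log2(reads / size factor + 1): 99.92% to 100.00% of values up to 200 reads fell within 0.1 of a whole read, and the reads were recovered. The size factors were within 0.0426% of median-of-ratios factors. Of 24495 genes, 7 with values that were not whole reads were left out, and 27 symbols turned into dates were restored. There was 1 unused column that matches no sample.

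Groups were compared 2 at a time on the deposited log2 values with limma 3.58.1 (R 4.3.3; intensity trend, robust, two-sided, Benjamini-Hochberg over all genes tested, threshold 0.05) and no covariate. A gene was tested if it had 15 reads over the libraries compared and 10 normalised reads in a number of them equal to the smaller group's size. This fit was the planned one. A fit for counts was to replace it only if the deposited unit proved to be counts, and the unit was log2. The fit was tested on simulated data. Marker levels are log2 of summed normalised reads + 1.

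The members and lists were chosen with earlier results of these data known. Named are all 9 members; up to 3 list genes per comparison with the smallest p; genes near Nnt that passed; and the 5 most and 3 least like Nnt. Other list genes were named after their values were seen. Alternatives changed the model, filter, pseudocount, scaling and libraries.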

Additional observations from a re-analysis of the deposited data

Results flagged for a closer look

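In 5 of 45 sets of a member in a group, 1 library stood apart from the rest by Dixon's criterion, which chance meets in about 1 in 20 sets. All values are log2(normalised reads + 1). Idh2 was lowest in vehicle library 5 at 10.42, with the next at 10.59, and highest in WT 2-month library 37 at 10.73, with the next at 10.54. Me3 was lowest in WT 4-month library 13 at 10.9, with the next at 11.11. Prdx3 was highest in tamoxifen library 9 at 11.65, with the next at 11.4. Txn2 was highest in vehicle library 3 at 12.39, with the next at 12.2. Of these 5 libraries, 4 had the highest summed astrocyte markers of their groups (16.36 in WT 2-month library 37, 16.68 in WT 4-month library 13, 16.61 in tamoxifen library 9 and 16.64 in vehicle library 3). The last 3 of these also had the highest olfactory bulb markers of their groups (14.01, 14.25 and 15.71), and vehicle library 5 the highest excitatory neuron markers (18.1). The part of the markers in these values was not tested. Nnt and Ccl28 had no such library in any group.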

How the results depend on the processing

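The members that passed were the same with limma-voom on recovered reads, at least 50 reads on average and a pseudocount of 8 in all 6 comparisons. With no filter Me3 was lost, so that the member count was 0 with vehicle, 2 with tamoxifen and 0 between the WT groups. Scaling by total reads, and 1 model of all 49 libraries, also gave 0 members between the WT groups. Against WT libraries 11 to 15 or 21 to 25 alone, 0 members passed with vehicle and 1 with tamoxifen (Gsr or Txn2). Genes near Nnt then numbered 0 and 0 with vehicle and 1 and 0 with tamoxifen, and 1 (Fgf10) and 0 in the libraries labelled AKO. In 1 model of 49 libraries they numbered 5 (2 in the pairwise fit) for the libraries labelled AKO against vehicle and 0 between the WT groups. The cause was not tested, except that fits to 5 WT libraries have fewer samples. Leaving out 1 library at a time gave 0 to 1 members with vehicle, 2 to 3 with tamoxifen and 0 to 2 between the WT groups (genes near Nnt 2 to 3, 3 to 4 and 0 to 2), and 0 in the libraries labelled AKO.

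Title numbers did not pair the libraries: same-numbered libraries had correlations of -0.212 to 0.094, and no library matched its own number best. With a replicate block, the 5 shared numbers of the libraries labelled AKO and WT gave 0 members and 12 genes in all (13 without the block), and the 2 shared with tamoxifen gave 0 members, 0 genes near Nnt and 334 genes in all (121 without the block, with 0 and 0); there Nnt was at 0.53 and Ccl28 at 1.28. Scaling by total reads moved the share of calls that were higher from 35.8% to 50.5% in the libraries labelled AKO against WT and from 57.2% to 69.6% against vehicle.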
